A study of Drosophila melanogaster with 185 samples.

Results

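DAL neurons are dorsal-anterior-lateral cells of the fruit fly brain, and here their messenger RNA after aversive odour training was set against that after a control treatment. The neurons were picked by position and green fluorescence in flies carrying the G0431-GAL4 driver and UAS-eGFP, in a w1118 background that both groups share. All 5 trained and 5 control DAL libraries were taken from 101 libraries of the series by their labels alone, and each library held 4 cells. Trained flies were shocked while they smelled an odour, in 8 blocks of 12 shocks (5 s each at 60 V) spaced by rests of 10 min, whereas control flies, by the protocol given for the series, received the shock first and the odour afterwards. All 5 control libraries are labelled control, but the authors' sample sheet codes control library 2 as O and the other 4 as SO, with no meaning stated, so whether control library 2 had the same treatment is unknown. Cells were drawn into a patch pipette soon after the last block and their poly(A) RNA was amplified by a SMARTer protocol. The labels give no fly age or sex and do not say how many flies gave the cells of a library, so every p-value below measures the spread between libraries. No list of genes that defines DAL neurons was used, so the label was checked only against genes that all neurons share.

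Spaced training with rests between blocks gives flies a long-lasting memory of the odour that depends on new protein synthesis. The transcription factor CREB, the cAMP pathway and the calcium-dependent kinase CaMKII are its best known molecular parts, and the mushroom body is the brain centre where odour memories form. DAL neurons have been described as a site outside the mushroom body where new protein synthesis is needed for long-term memory, with CaMKII and the clock gene period among the genes that act there.

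The libraries held between 4.998 and 10.961 M counted reads (M, 1e6) in the trained group and between 7.4 and 17.312 M in the control group. Trained libraries detected 7432 ± 546 genes with at least 1 read, and control libraries 7635 ± 518 (SD, n = 5 each), a difference that an exact two-sided permutation test did not separate (p = 0.532, where 0.00794 is the smallest p the design allows). After thinning to the lowest total the means were 7321 genes in trained and 7323 genes in control libraries (exact permutation p = 0.992). The correlation of log2(CPM + 1) between libraries, where CPM is counts per 1e6 counted reads, had a median of 0.634 over the 25 pairs that cross the groups. It was 0.637 over the 10 pairs within the trained group and 0.619 over the 10 pairs within the control group, so the medians within and between the groups were nearly equal. Control libraries 3, 4 and 5 were sequenced in 2 runs, which were summed, since their counts differed by no more than sampling noise (0.9792 to 1.0245 for chi-square over its degrees of freedom).

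All 10 libraries carried the RNA of neurons. Each of the 15 pan-neuronal genes had at least 10 CPM in all 10 libraries. elav, the RNA-binding protein used to mark fly neurons, ran from 363 to 1020 CPM in trained and from 283 to 638 CPM in control libraries. VGlut, the vesicular glutamate transporter, had 1250, 1020, 1260, 1570 and 2450 CPM in trained libraries 1 to 5, against 2830, 1310, 1730, 1810 and 1660 CPM in control libraries 1 to 5. Its highest library was only 2.78-fold above its lowest, whereas over the 2354 genes with at least 10 CPM in all 10 libraries that ratio had a median of 5.99. IA-2, a membrane protein of dense-core vesicles, was also abundant throughout, at 11700 to 24200 CPM in trained and 5900 to 17400 CPM in control libraries.

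No gene passed the test between trained and control DAL neurons. edgeR's quasi-likelihood test called 0 of 6953 genes at a Benjamini-Hochberg adjusted p under 0.05, a share of 0.0%. The common coefficient of variation between libraries of a group was 1.21. At an unadjusted p under 0.05, 61 genes were higher in trained libraries (0.877% of those tested) and 75 were lower (1.08%). DESeq2 called 34 genes higher and 23 lower, and limma voom with library quality weights called 0 in either direction, with 214 genes higher and 163 lower at an unadjusted p under 0.05. Of the 57 genes called by DESeq2, 33 did not pass edgeR's filter on low counts and 21 had reads in at most 5 of the 10 libraries. CG6985 illustrates these sparse genes, with no reads in any trained library and 57.7, 0.131 and 49.7 CPM in control libraries 3, 4 and 5. Of the 57 genes, 15 higher and 9 lower ones did pass the edgeR filter. The values that follow are therefore descriptions of which genes lay furthest apart, and none is a call by edgeR.

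In 47 genes (0.676% of those tested) all 5 trained libraries lay above all 5 control libraries, and in 20 genes (0.288%) all 5 lay below. For a gene without ties, random group labels give such separation, in either direction, with a probability of 0.00794. Separation alone is therefore a description of a gene and not a result. Among the genes past edgeR's filter on low counts the largest log2 fold change was that of Rcd7, a gene named in a screen for centrosome defects. Rcd7 had 12.2, 19.3, 7.4, 20.9 and 6.89 CPM in trained libraries 1 to 5, against 0, 0, 0, 0 and 0.0578 CPM in control libraries 1 to 5. Every trained library held it, and 1 read in control library 5 was all that the controls had. The trained libraries together held 585 reads, a ratio of rates of 728 with an exact 95% interval of 130 to 28800 that covers counting error only (edgeR p = 0.000426 unadjusted, adjusted p = 1.0; DESeq2 adjusted p = 8.88e-09). Amplified reads are not independent molecules, so this interval understates the uncertainty. CG30263, which did not pass edgeR's filter, had 32.3, 0.561, 3.6, 0.365 and 6.52 CPM in trained libraries and no reads in any control library (DESeq2 adjusted p = 0.00386).

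Several genes that act on RNA were among those higher after training. CstF-64 encodes a subunit of the complex that cleaves the 3′ end of new messenger RNA, and Pcf11 a factor of cleavage and transcription termination. CstF-64 had 25.1, 3.93, 13.4, 2.92 and 32.3 CPM in trained libraries, against 0, 0.455, 0.257, 0.131 and 0.116 CPM in control libraries, with a log2 fold change of 6.14 ± 1.88 (SE; edgeR adjusted p = 1.0; DESeq2 adjusted p = 4.42e-06). Pcf11 had 132, 138, 192, 157 and 300 CPM in trained libraries, against 81.4, 131, 48.1, 37.6 and 70.1 CPM in control libraries. Neither gene overlapped between the groups, although trained library 1 stood only just above control library 2 for Pcf11. CG3756, a subunit that RNA polymerases I and III share, lay between 2.01 and 37.3 CPM in trained libraries and between 0 and 1.3 CPM in control libraries. The nucleolar helicase gene pit lay between 1.46 and 56.0 CPM in trained libraries and between 0 and 0.913 CPM in control libraries. No list of RNA-processing genes was tested, so this grouping rests on the names of genes already chosen for their values.

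Other genes with every trained library above every control library have separate known roles, and no list joins them. mim encodes a protein that bends membranes and regulates actin. mim had 89.2, 162, 213, 205 and 87.5 CPM in trained libraries, against 13, 42.9, 54.1, 17.1 and 33.3 CPM in control libraries, with a log2 fold change of 2.23 ± 0.57 (SE; edgeR p = 0.00106 unadjusted, adjusted p = 1.0). Its lowest trained library stood well above its highest control. CG11221, or meng-po, is a kinase known in flies for stabilising the CREB protein during long-term memory. It had 156, 100, 51.8, 44.3 and 33.2 CPM in trained libraries, against 7.43, 8.88, 1.03, 30.8 and 15.5 CPM in control libraries, with a log2 fold change of 2.46 ± 0.90 (SE; edgeR p = 0.0139 unadjusted, adjusted p = 1.0). Trained library 5 and control library 4 were nearly level, so the groups only just failed to overlap.

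Gadd34, which brings a phosphatase to the initiation factor eIF2 and so lets translation resume after stress, had 189, 54.6, 49.8, 49.7 and 73.7 CPM in trained libraries, against 6.76, 18.6, 15.2, 14.5 and 28.4 CPM in control libraries. brm, the ATPase of the SWI/SNF chromatin remodelling complex, had 71.7, 116, 74.6, 129 and 58.3 CPM in trained libraries, against 17.7, 27.4, 39.1, 14.4 and 38.8 CPM in control libraries. Both had every trained library above every control library, and DESeq2 called both (adjusted p = 0.00989 for Gadd34 and 0.0386 for brm). Ark, the apoptosis activator that resembles mammalian Apaf-1, had 12.6 to 67.8 CPM in trained libraries and 0 to 2.83 CPM in control libraries. dare, the adrenodoxin reductase of steroid hormone synthesis, had 9.0 to 37.3 CPM in trained and 0 to 3.29 CPM in control libraries. CG1105 had 7.39 to 30.3 CPM in trained and 0 to 0.751 CPM in control libraries, and CG5114 had 9.88 to 21.6 CPM in trained and 0 to 2.7 CPM in control libraries.

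Some genes with small p-values did overlap. CG43902 had 56.4, 246, 606, 91.5 and 284 CPM in trained libraries, against 21.2, 60.8, 75.2, 30.9 and 98.9 CPM in control libraries. CG5807 had 6.57 to 121 CPM in trained and 0 to 11.8 CPM in control libraries, with control library 5 above trained library 4. uri, a prefoldin-related chaperone gene, had 1.01 to 40.0 CPM in trained and 0 to 1.62 CPM in control libraries, with trained library 1 below control library 1.

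**Figure D1:**
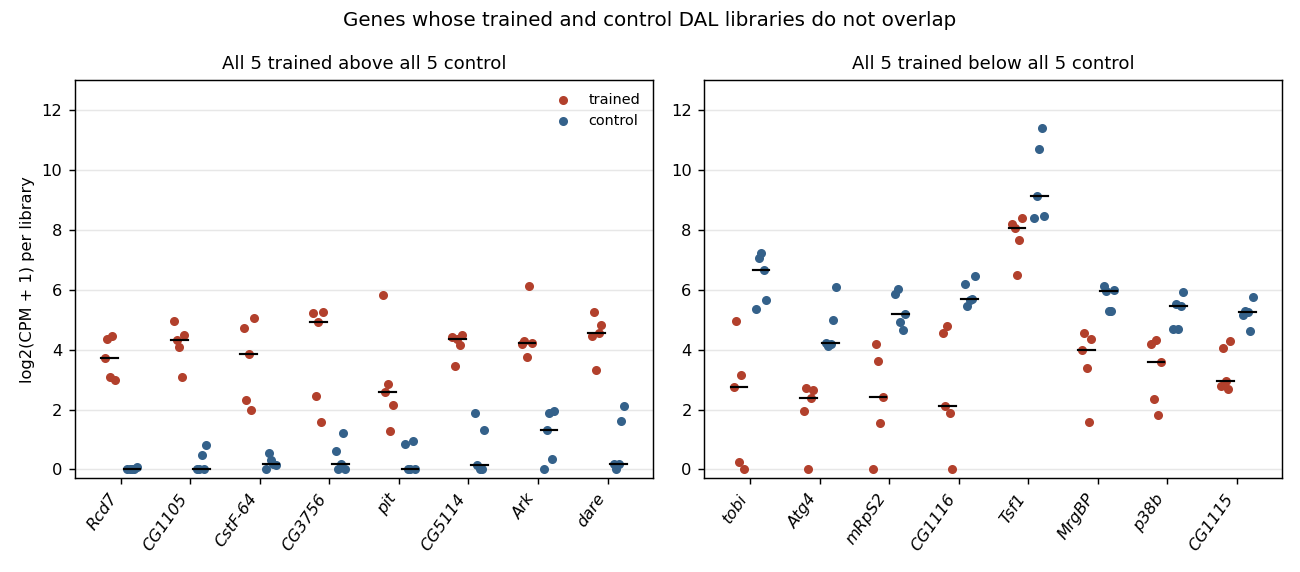
Level of 16 genes in each DAL library as log2(CPM + 1), with trained libraries in red, control libraries in blue and black bars at group medians. On the left are the 8 genes with the largest log2 fold change among those with all 5 trained libraries above all 5 control libraries, and on the right the 8 with the opposite order; Rcd7 sits near 0 in every control library, and Tsf1 is the most abundant of the 16.

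Among genes lower after training, the best separated were not a single group. Tsf1, the iron-carrying transferrin of fly hemolymph, had 293, 267, 88.4, 202 and 331 CPM in trained libraries, against 337, 556, 1650, 2710 and 350 CPM in control libraries, with a log2 fold change of -2.36 ± 0.61 (SE; edgeR p = 0.0012 unadjusted, adjusted p = 1.0). Control libraries 3 and 4 were highest, and controls 1 and 5 were close to the top of the trained range. Gie, the Arl8 GTPase that moves lysosomes and synaptic precursors along axons, had 128, 78.5, 80, 22 and 123 CPM in trained libraries, against 158, 225, 151, 265 and 354 CPM in control libraries. Its groups did not overlap and the controls were more even than for Tsf1.

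tobi, a glucosidase of the fat body that responds to insulin from the brain, had 5.7, 30, 0.2, 7.94 and 0 CPM in trained libraries, against 40.3, 133, 148, 100 and 49.3 CPM in control libraries. Its lowest control library stood just above its highest trained library. Srp9, a subunit of the signal recognition particle that guides proteins to the secretory pathway, had 76.5, 36.6, 17.4, 26.0 and 19.8 CPM in trained libraries, against 149, 155, 192, 50.5 and 135 CPM in control libraries. Trained library 1 lay above control library 4, the lowest of the controls. Hsp67Bc, a small heat shock protein, had 37.8 to 262 CPM in trained and 88.7 to 482 CPM in control libraries, with overlap.

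Low-abundance genes with all trained libraries below all controls came from several pathways. Atg4, the protease that processes Atg8 in autophagy, had 0 to 5.61 CPM in trained and 16.2 to 67.0 CPM in control libraries. mRpS2, of the mitochondrial ribosome, had 0 to 17.2 CPM in trained and 23.9 to 63.4 CPM in control libraries. MrgBP, of a histone acetylation complex, had 2.01 to 22.2 CPM in trained and 38.0 to 68.8 CPM in control libraries. The stress kinase gene p38b had 2.55 to 19.0 CPM in trained and 24.9 to 59.3 CPM in control libraries. CG1115, the Vps37B subunit of the ESCRT sorting machinery, had 5.38 to 18.5 CPM in trained and 23.5 to 52.9 CPM in control libraries, and CG1116 had 0 to 26.6 CPM in trained and 43.0 to 87.6 CPM in control libraries.

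Of the 12 genes with the smallest p among those lower after training, 5 encode immune peptides. Bomanins, Daisho and Baramicin are small peptides that the fat body secretes when the Toll pathway is active. IM23, the bomanin gene BomBc1, had 139, 259, 52.0, 28.3 and 202 CPM in trained libraries, against 247, 392, 1580, 1450 and 298 CPM in control libraries, with a log2 fold change of -2.72 ± 0.67 (SE; edgeR p = 0.000928 unadjusted, adjusted p = 1.0; DESeq2 adjusted p = 0.0373). Trained library 2 overlapped control library 1, and control libraries 3 and 4 were far above the other 8. IM1, the bomanin BomS1, had 365, 331, 78.0, 158 and 246 CPM in trained libraries, against 319, 709, 1720, 1780 and 245 CPM in control libraries, with controls 1 and 5 inside the trained range.

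The same libraries were high for CG5791, a further bomanin, at 41.2 to 174 CPM in trained and 108 to 1030 CPM in control libraries, and for IM4, a Daisho gene, at 188 to 756 CPM in trained and 343 to 1890 CPM in control libraries. CG33470, a Baramicin gene, had 146 to 970 CPM in trained and 326 to 4010 CPM in control libraries. Its values track those of IM10 (125 to 942 CPM in trained and 306 to 3900 CPM in control libraries), a near-identical copy with which reads may be shared, so the pair is uncertain as separate genes. CG16772 followed the same libraries, at 43.0 to 334 CPM in trained and 189 to 2680 CPM in control libraries.

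Of the 24 genes in the antimicrobial peptide list 11 were tested, 7 of them with a log2 fold change below 0, and the list median was -1.33 against 0.03 over all 6953 genes. At an unadjusted p under 0.05, 5 of the 11 were lower and 0 higher, and edgeR called 0. The summed CPM of the list was 4210, 3170, 1380, 6580 and 4850 in trained libraries, against 3820, 8490, 16900, 16400 and 3260 in control libraries. Control libraries 3 and 4 carried most of the difference. Control library 2, the one coded O, also lay above every trained library, and controls 1 and 5 lay within the trained range. Control libraries 3 and 4 share the title code 11, also that of control library 5, and the authors' grouping code B. No trained library carries either, so group and code cannot be told apart for them. Without control libraries 3 and 4 the list median was -0.14, over the 13 members that then passed the filter in place of 11. The log2 fold change was then -1.29 for IM23, -0.82 for Tsf1, -0.90 for IM1 and -0.52 for CG33470. Attacin C (AttC), a peptide of the Imd pathway, was instead highest in trained library 4 at 1180 CPM and in control library 3 at 1340 CPM.

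Fat body and yolk genes were also mostly lower in trained libraries, without a call. Yp1 and Yp3 are yolk proteins made by the fat body and ovary, and both were among the 10 most abundant genes of these libraries. Yp1 had 4370, 7910, 4030, 17500 and 5410 CPM in trained libraries, against 9790, 20800, 13800, 14200 and 5760 CPM in control libraries, with a log2 fold change of -0.65 ± 0.52 (SE; edgeR p = 0.233 unadjusted). Yp3 had 4520, 6930, 4270, 11200 and 2540 CPM in trained libraries, against 9100, 19600, 10600, 9980 and 4490 CPM in control libraries. Both overlapped, with trained library 4 as high as the controls. Of 11 tested members of the fat body and yolk list 10 had a log2 fold change below 0, with a median of -0.64, and 2 had an unadjusted p under 0.05. The summed CPM was 11500 to 42700 in trained and 14800 to 56300 in control libraries, and single yolk genes are uncertain because they are close copies. Fewer cells of a type and less RNA per cell cannot be told apart in such sums, and the part of fat body RNA in the lower immune genes was not tested.

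Hemocyte genes marked out single libraries rather than groups. The summed CPM of the hemocyte and trachea list was 196, 9300, 232, 445 and 569 in trained libraries, against 4260, 645, 1030, 8240 and 243 in control libraries. Hml, a secreted clotting protein of hemocytes, had 1620 CPM in trained library 2 and 1680 CPM in control library 4, and between 12.5 and 253 CPM in the other 8 libraries. The prophenoloxidase genes PO45 and proPO-A1 encode the melanising enzymes of crystal cells. PO45 had 13.3, 65.5, 12.2, 1.28 and 24.6 CPM in trained libraries, against 2770, 46.7, 87.9, 2670 and 27.6 CPM in control libraries, with a log2 fold change of -5.74 ± 1.68 (SE; edgeR p = 0.0076 unadjusted; DESeq2 adjusted p = 0.000434). proPO-A1 had 16, 13.7, 5.0, 0 and 0.362 CPM in trained libraries, against 919, 27.1, 46.4, 1750 and 14.6 CPM in control libraries. Control libraries 1 and 4 held the highest levels of both genes, control library 3 lay above every trained library in both genes, and control library 5 lay within the trained range in both. Trained library 2 was rich in Hml without being rich in either prophenoloxidase. The list median was 0.69 with 8 of 12 above 0, and it was -0.89 with 9 of 12 below 0 without trained library 2 and control library 4.

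Markers of further cell types were low or uneven. The defining glial gene repo had a median of 0.114 CPM over the 10 libraries and at most 11.6 CPM, and gcm was at 0 in all 10. Other glial genes were higher, as fabp had 88.4 to 975 CPM, nrv2 50.5 to 418 CPM and Gs2 42.7 to 398 CPM over the libraries. Of 11 tested glial genes 5 had at least 10 CPM in all 10 libraries. The glial list as a whole summed to 622 to 2190 CPM in trained and 557 to 1480 CPM in control libraries. Eaat1, the glutamate transporter of glia, had 61.1, 20, 1680, 351 and 134 CPM in trained libraries, against 13.2, 12.3, 141, 50.4 and 49.0 CPM in control libraries, and trained library 3 stood far above the rest. It was the 1 glial gene with an unadjusted p under 0.05 by edgeR, higher in trained libraries, and edgeR did not call it. Muscle genes had a median log2 fold change of -1.06 over 13 tested members, 10 of them below 0, none at an unadjusted p under 0.05, and their summed CPM was 254 to 435 in trained and 201 to 828 in control libraries. Kenyon cell genes, 12 of 17 above 0, had a median of 0.21, but of -0.13 with 12 of 17 below 0 without trained libraries 3 and 4. The light-receptor gene ninaE had 4030, 781, 1320, 45.9 and 15300 CPM in trained libraries, against 2670, 3200, 6000, 1930 and 269 CPM in control libraries, a range of 333-fold between libraries with no order between the groups.

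**Figure D2:**
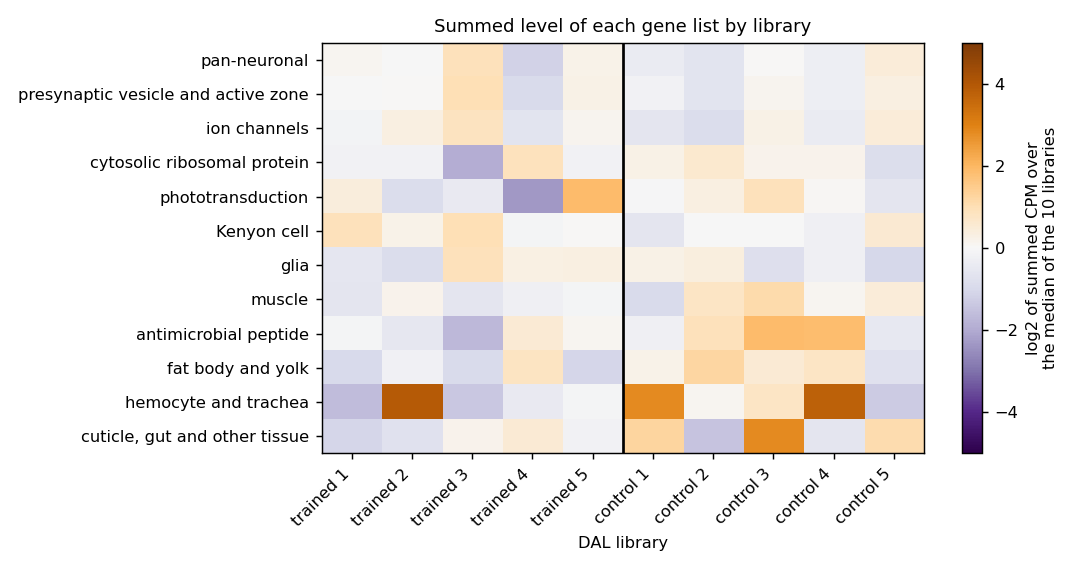
Summed CPM of 12 gene lists in each of the 10 DAL libraries, trained on the left of the black line and control on the right, as log2 of the sum over the median of the 10 libraries. Antimicrobial peptide sums are highest in control libraries 3 and 4 (16900 and 16400 CPM), hemocyte sums in trained library 2 and control library 4 (9300 and 8240 CPM), and trained libraries 3 and 4 hold the lowest and the highest ribosomal protein sums.

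Neuronal gene lists differed in direction, and 0 of their members passed the test. Transmitter synthesis and transport genes had a median log2 fold change of -0.28 with 6 of 13 above 0, and synaptic adhesion genes -0.03 with 14 of 30 above 0. Ion channel genes had a median of 0.40 on the log2 scale with 18 of 23 above 0, where 51.8% of all tested genes were above 0. Shaw, a voltage-gated potassium channel, had 99.1, 217, 313, 94.7 and 411 CPM in trained libraries, against 66.9, 136, 50.5, 94.2 and 152 CPM in control libraries, and was the 1 member with an unadjusted p under 0.05 (p = 0.0381, edgeR adjusted p = 1.0). Its groups overlapped in trained libraries 1 and 4. The sodium channel gene para had 406 to 1100 CPM in trained and 308 to 814 CPM in control libraries. Presynaptic vesicle and active zone genes had a median of 0.26 with 20 of 27 above 0, and pan-neuronal genes a median of 0.26 with 11 of 15 above 0. The neuronal sum was 28100, 25500, 49400, 11700 and 30000 CPM in trained libraries, against 19900, 16900, 26900, 21300 and 35400 CPM in control libraries, so trained libraries 3 and 4 were the highest and the lowest of all 10. Without those 2 libraries the medians were 0.14 for ion channels, 0.02 for presynaptic genes and 0.01 for pan-neuronal genes.

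Genes of translation were more often lower, also without a call. Cytosolic ribosomal protein genes had a median of -0.13 with 55 of 84 below 0 and 6 lower at an unadjusted p under 0.05, among them sta, which encodes a protein of the small ribosomal subunit. sta had 492, 785, 160, 227 and 985 CPM in trained libraries, against 1540, 1440, 1640, 1030 and 512 CPM in control libraries, where only control library 5 lay inside the trained range (edgeR p = 0.0151 unadjusted, adjusted p = 1.0). RpL38 stood apart from the list at 7300 CPM in trained library 4 and 629 to 1710 CPM in the other 9 libraries. The list summed to 76400, 76500, 22800, 162000 and 77700 CPM in trained libraries, against 103000, 132000, 97800, 98600 and 49300 CPM in control libraries. Trained library 3 was lowest in ribosomal protein RNA and highest in neuronal RNA, and trained library 4 the reverse. Both libraries were picked after these sums were seen, as the ends of their range, so the fit without them is only a description. In that fit 83 of 84 ribosomal protein genes had a log2 fold change below 0. Their median was -0.49, with 2 lower at an unadjusted p under 0.05. Members of the list are measured in the same libraries, so their signs are not independent. Control library 5, at 49300 CPM, still lay below every remaining trained library. Translation initiation factors had a median of -0.24 with 18 of 25 below 0, mitochondrial ribosomal proteins -0.30 with 43 of 73 below 0, and glycolysis and energy genes -0.18 with 22 of 30 below 0.

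Activity and memory genes did not separate the groups. CrebB-17A, the fly CREB gene, had 24.2, 17.5, 27.2, 21.1 and 56.0 CPM in trained libraries, against 9.46, 7.17, 18.9, 10.0 and 12.4 CPM in control libraries, with a log2 fold change of 1.29 ± 1.13 (SE; edgeR p = 0.27 unadjusted, adjusted p = 1.0). Of the trained libraries 4 lay above every control, and trained library 2 fell just below control library 3. nej, the CREB-binding coactivator, had 101 to 280 CPM in trained and 86.2 to 315 CPM in control libraries. The list of memory-related transcription factors around CREB had a median of 0.21 with 9 of 12 above 0 and 0 at an unadjusted p under 0.05. Its median was 0.09 without trained libraries 3 and 4.

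The clock gene period (per) was near the limit of detection in most libraries. It had 27, 0, 0.4, 2.74 and 22.1 CPM in trained libraries, against 2.16, 6.49, 0, 1.17 and 32.3 CPM in control libraries (log2 fold change 0.25 ± 1.87, SE). Levels above 20 CPM occurred in trained libraries 1 and 5 and in control library 5. timeless (tim), its partner, had 63.0, 21.4, 0.2, 23.7 and 34.4 CPM in trained libraries, against 2.43, 24.8, 195, 58.7 and 11.4 CPM in control libraries. The blue-light receptor gene cry had 367, 2.58, 38.8, 9.49 and 0.181 CPM in trained libraries, against 46.1, 85.5, 36.9, 16 and 187 CPM in control libraries, so trained libraries 1 and 5 held its highest and its lowest level. Clock genes as a list had a median of -0.14 with 5 of 13 above 0.

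CaMKII had 2490, 1380, 3970, 746 and 2430 CPM in trained libraries, against 1530, 1300, 1640, 1460 and 3220 CPM in control libraries, with a log2 fold change of 0.20 ± 0.43 (SE; edgeR p = 0.655 unadjusted). The controls were even but for library 5, and the trained libraries spread on both sides of them. Nmdar1, the obligate subunit of fly NMDA receptors, had 14.8 to 143 CPM in trained and 20.1 to 93.0 CPM in control libraries, lowest in trained library 2 and control library 2. Nmdar2, the second subunit, had 0.639 to 4.38 CPM in trained and 0.341 to 20.7 CPM in control libraries, with a log2 fold change of -2.32 ± 1.61 (SE; edgeR p = 0.166 unadjusted).

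Immediate-early and cAMP genes showed the same overlap. Hr38 and stripe (sr), transcription factors induced by neuronal activity, had 2.54 to 54.6 CPM and 7.49 to 196 CPM in trained libraries, against 0 to 64.8 CPM and 1.71 to 176 CPM in control libraries. kay, the fly Fos, had 17.3 to 116 CPM in trained and 30.6 to 77.6 CPM in control libraries, and Arc1, a capsid-forming activity gene, 23.2 to 314 CPM in trained and 17.7 to 154 CPM in control libraries. The activity-regulated list had a median of 0.10 with 7 of 13 above 0 and 0 at an unadjusted p under 0.05. Without trained libraries 3 and 4 its median was -0.45, with 11 of 13 below 0. The adenylyl cyclase gene rut had 98.9 to 174 CPM in trained and 8.08 to 217 CPM in control libraries, and the phosphodiesterase gene dnc 555 to 1520 CPM in trained and 571 to 1770 CPM in control libraries. The PKA catalytic subunit gene Pka-C1 had 212 to 750 CPM in trained and 157 to 596 CPM in control libraries, and the regulatory subunit gene Pka-R2 93.6 to 773 CPM in trained and 172 to 412 CPM in control libraries. Of 21 cAMP and PKA genes 13 were above 0, with a median of 0.19. Leaving out trained libraries 3 and 4 gave this list a median of -0.12, with 15 of 21 below 0.

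Translation regulators that act at synapses were above 0 more often than not. orb2, a prion-like protein needed for lasting memory, had 512, 819, 2190, 479 and 781 CPM in trained libraries, against 257, 310, 953, 385 and 1100 CPM in control libraries (log2 fold change 0.60 ± 0.51, SE). pum, the Pumilio repressor, had 871 to 1760 CPM in trained and 599 to 1280 CPM in control libraries, and stau, which carries RNA granules, 147 to 340 CPM in trained and 122 to 271 CPM in control libraries. The RNA-binding list had a median of 0.40 with 11 of 16 above 0 and 0 at an unadjusted p under 0.05. Among Ras-MAPK genes Sos, the exchange factor that activates Ras, had all trained libraries (9.4 to 30 CPM) above all controls (0.257 to 8.38 CPM; edgeR p = 0.151 unadjusted). Ras64B had 20.8 to 100 CPM in trained and 45.1 to 226 CPM in control libraries (edgeR p = 0.021 unadjusted). The MAPK kinase gene Dsor1 had 17.3 to 44.2 CPM in trained and 1.44 to 65.1 CPM in control libraries, and S6kII, a downstream kinase gene, had a log2 fold change of 0.38 ± 0.90 (SE). That list had a median of -0.06, and its kinase gene rl is listed at 0 in all 10 libraries. Whether rl RNA was absent or its reads were not counted was not tested. In the synaptic adhesion list robo had 50.3 to 66.4 CPM in trained and 8.54 to 37.9 CPM in control libraries, without overlap (edgeR p = 0.185 unadjusted). Sos was 1 of 14 tested members of its list and robo 1 of 30 with such separation, which 0.676% of all genes tested showed. Fas2, an adhesion molecule of axons, had 90.6 to 161 CPM in trained and 23 to 109 CPM in control libraries, and the groups overlapped (edgeR p = 0.0426 unadjusted, adjusted p = 1.0).

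**Figure D3:**
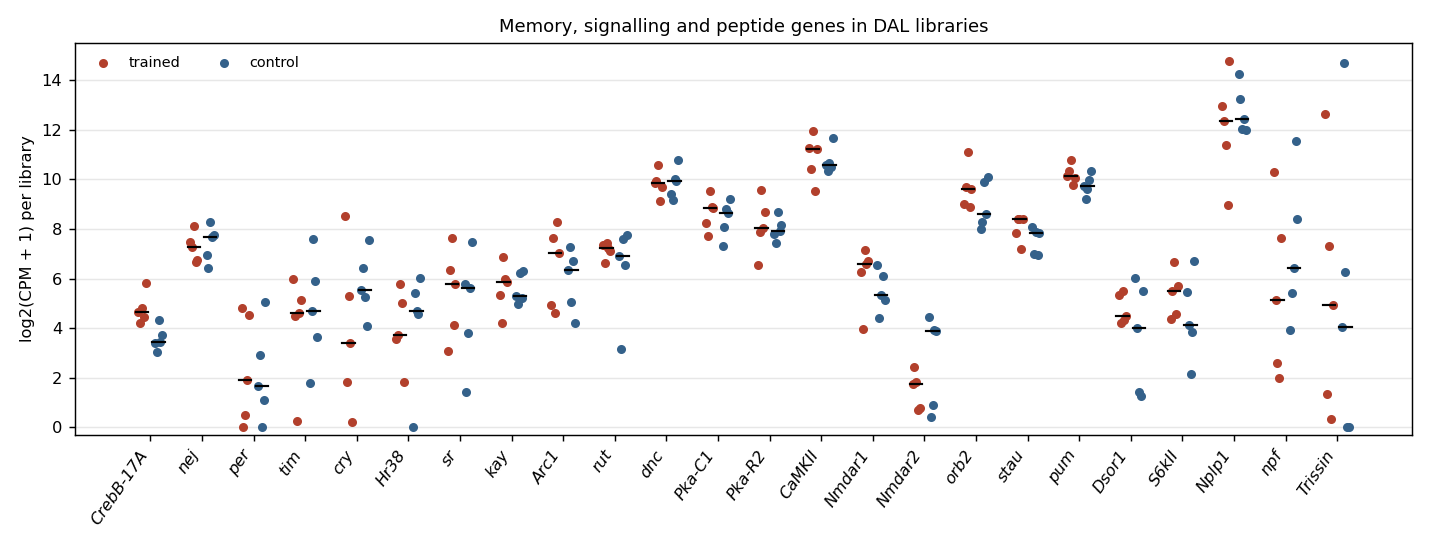
Level of 24 memory, signalling and peptide genes in each DAL library as log2(CPM + 1), trained in red left of control in blue, with black bars at group medians. The groups overlap for every gene; CrebB-17A comes closest to separation, and npf and Trissin span the widest ranges between libraries.

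**Figure D4:**
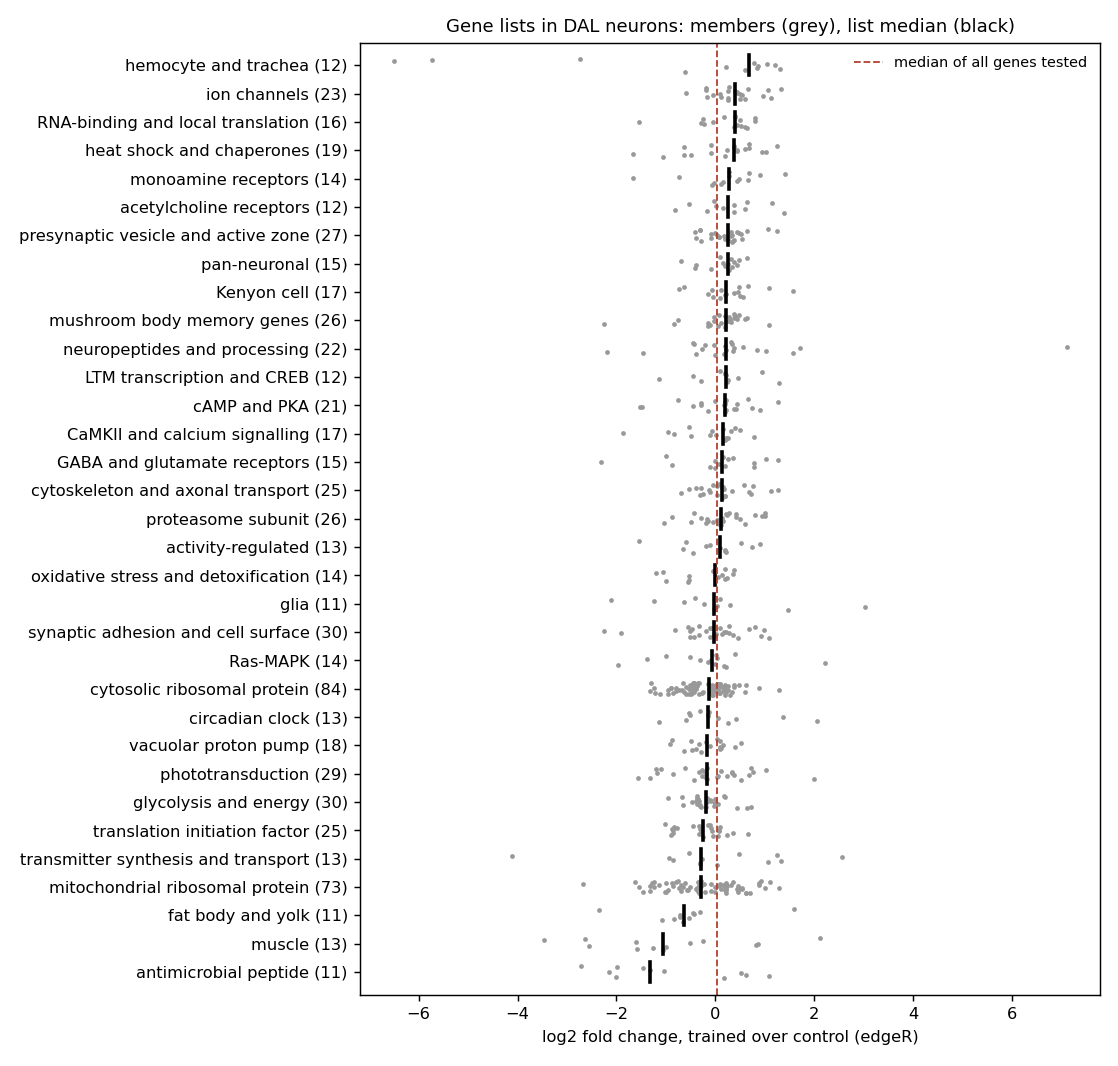
edgeR log2 fold change, trained over control, of each tested member (grey points) of the 33 gene lists with at least 10 tested members, with list medians in black, the number tested in brackets and the median of all genes tested (0.03) as a dashed line. Antimicrobial peptide, muscle and fat body lists lie lowest (-1.33, -1.06 and -0.64), and the hemocyte list highest (0.69, but -0.89 without trained library 2 and control library 4).

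Peptide and transmitter genes differed widely between DAL libraries, and these differences crossed the groups. Nplp1, a neuropeptide precursor, had 7900, 5300, 2680, 508 and 28100 CPM in trained libraries, against 19700, 9700, 4150, 5620 and 4120 CPM in control libraries (log2 fold change 0.00 ± 0.78, SE), so trained library 5 was highest and trained library 4 lowest. itp, the ion transport peptide, had 20700, 20.2, 3160, 166 and 19.4 CPM in trained libraries, against 7.43, 5.12, 7.2, 4.04 and 17100 CPM in control libraries. Only trained libraries 1 and 3 and control library 5 held it at high level. Trissin, a cysteine-rich peptide, had 6460, 1.57, 160, 0.274 and 29.7 CPM in trained libraries, against 15.7, 26900, 76.7, 0 and 0 CPM in control libraries. Its highest level was in control library 2, and 2 other controls held no read of it.

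npf, the fly neuropeptide F, had 1250, 33.8, 5.0, 3.01 and 200 CPM in trained libraries, against 14.2, 41.3, 85.0, 2970 and 343 CPM in control libraries. Dms, the myosuppressin precursor, reached 7950 CPM in trained library 4 and at most 36.0 CPM in the other 9 libraries. Gad1, the enzyme that makes GABA, had 20.9, 3530, 6520, 573 and 124 CPM in trained libraries, against 25.0, 59.2, 1960, 1730 and 7.39 CPM in control libraries, a ratio of 882 between the highest and the lowest library beside the steady VGlut. Enzymes that process peptides varied less than npf, Dms and Gad1, but not all were steady. amon, a proprotein convertase, had 790 to 2820 CPM in trained and 1000 to 1880 CPM in control libraries. Its highest library was 3.57-fold above its lowest, and that ratio was 2.67 for svr. For the processing genes Phm, Pal1 and Pal2 it was 7.45, 8.38 and 8.78, above the median of 5.99 given earlier. Of the 22 tested peptide and processing genes 10 had at least 10 CPM in all 10 libraries, and of 13 transmitter genes 3 did. The same held for 15 of 15 pan-neuronal genes and for 33.9% of all genes tested.

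**Figure D5:**
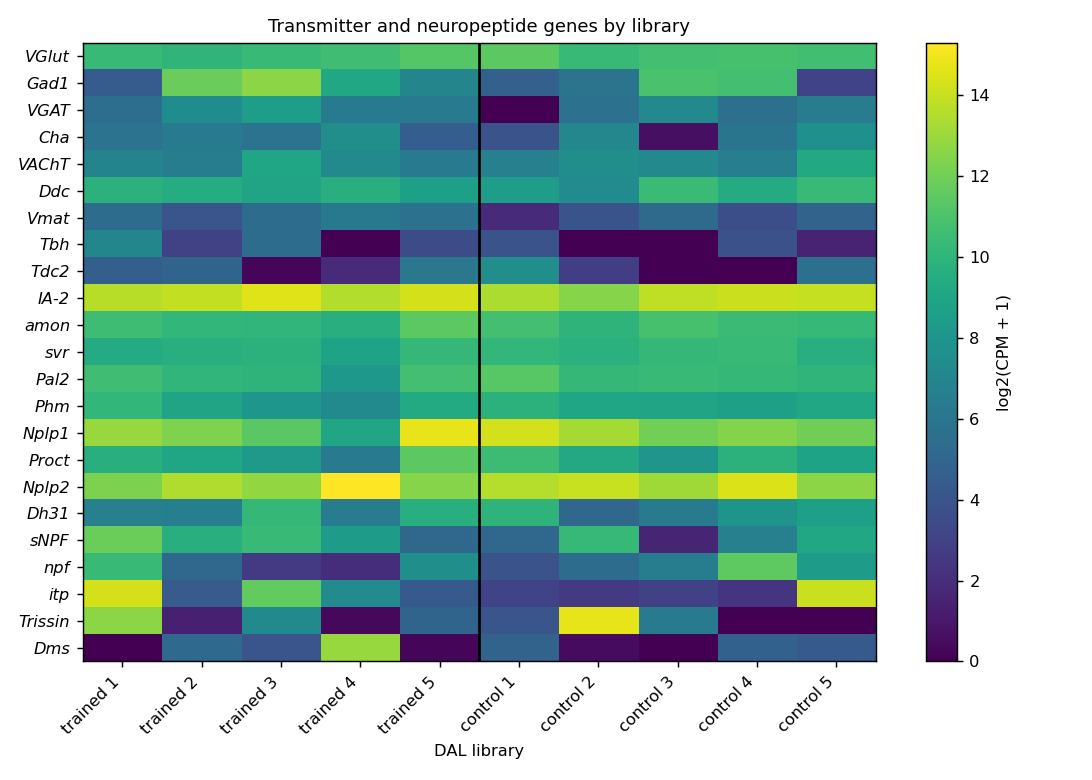
Level of 23 transmitter, peptide-processing and neuropeptide genes in each DAL library as log2(CPM + 1), trained left of the black line and control right of it. VGlut and IA-2 are even across the 10 libraries, whereas itp, Trissin, npf, Dms and Gad1 reach their highest levels in libraries of either group.

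None of the 10 most abundant genes passed the test between the groups. noe, a long non-coding RNA of the nervous system, had 51700, 16800, 29800, 38900 and 40200 CPM in trained libraries, against 50100, 58700, 34600, 21200 and 41000 CPM in control libraries. Nplp2 had 4910 to 40500 CPM in trained and 6490 to 22700 CPM in control libraries, and CG4577 4550 to 28600 CPM in trained and 9760 to 28200 CPM in control libraries. The non-coding RNA CR31451 had 4290 to 13400 CPM in trained and 4490 to 10200 CPM in control libraries, and pros, the transcription factor prospero, 4520 to 11800 CPM in trained and 2940 to 13500 CPM in control libraries. The stress-linked non-coding RNA Hsromega had 820.7 CPM in trained library 4 and 2400 to 16000 CPM in the other 9.

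Training in DAL neurons was last set against training in the other classes with 4 cells per library, V3, 3-86 and R27G01, by testing the difference between the log2 fold changes. edgeR called 0 of 8963 genes (0.0%), with 330 higher and 197 lower at an unadjusted p under 0.05, and DESeq2 called 284 higher and 139 lower. The smallest p belonged to CG4766, at 14.8 CPM in trained and 0.0954 CPM in control DAL libraries, against 0.712 CPM in trained and 26.9 CPM in control V3 libraries (difference of log2 fold changes from the 3 classes together 8.70 ± 1.83, SE; edgeR adjusted p = 0.145). CG4766 averaged 66.9 CPM in trained and 153 CPM in control 3-86 libraries, and 155 CPM in trained and 96.3 CPM in control R27G01 libraries, so R27G01 had the same direction as DAL. IM23 averaged 136 CPM in trained and 793 CPM in control DAL libraries, against 310 CPM in trained and 257 CPM in control V3 libraries 1320 CPM in trained and 766 CPM in control 3-86 libraries, and 1550 CPM in trained and 1240 CPM in control R27G01 libraries (difference -3.27 ± 0.86, SE; edgeR adjusted p = 0.454). RpL24, of the large ribosomal subunit, averaged 385 CPM in trained and 843 CPM in control DAL libraries, against 712 CPM in trained and 425 CPM in control V3 libraries, 1100 CPM in trained and 793 CPM in control 3-86 libraries, and 1190 CPM in trained and 847 CPM in control R27G01 libraries (difference -1.92 ± 0.54, SE; edgeR adjusted p = 0.454). These genes were chosen after their values were seen, and none of the differences passed the test.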

How the data were processed

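Poly(A) RNA of 4 DAL cells per library was amplified with a SMARTer kit, per the labels' protocols, and that kit does not keep strand. The authors deposited whole-number read counts per gene with no normalization. Reads were processed with cutadapt, TopHat2, Bowtie, Bowtie2 and HTSeq on BDGP5, and DESeq2 1.4 was used by the authors, per the submitters' processing notes. How reads shared by near-identical or overlapping genes were counted is not given in the sources used here. Symbols follow the deposited tables, and current names come from RefSeq, in which 15369 of 15682 symbols matched a gene, and no coordinates are given because the reference is of another build. The authors' deposited sample sheet gave the grouping letters A to D and treatment codes (T for trained, SO for 4 controls and O for control library 2), whose meaning is not stated.

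The runs of a library were summed and CPM computed on total counts. Genes passing filterByExpr were tested with edgeR 4.0.16 in R 4.3.3 (TMM, robust quasi-likelihood fit, 2-sided, Benjamini-Hochberg over all genes tested, threshold 0.05), and fold changes are edgeR's. The difference from the other 4-cell classes used a group-means fit of 4 classes. Alternatives were DESeq2 1.42.0, limma 3.58.1, other filters and scalings, and title code or grouping letter as a term. Further ones were all 14 neuron groups in the fit, the first run alone and leaving out libraries. The fits were run on simulated counts, where recovery of set fold changes was required only at a smaller spread than these libraries had. What fold change the test could find at a coefficient of variation of 1.21 is not given here. Detection was compared by exact permutation tests in scipy 1.17.1.

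Genes are named by smallest p (12 per direction, at least 10 CPM in the higher group), by largest fold change among genes whose groups do not overlap (8 per direction), by a list of memory genes and by abundance (10 genes); members and lists were chosen with earlier results of these data known. Lists are described by counts and medians. Sequences are not shown. Libraries are given in accession order.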

Additional observations from a re-analysis of the deposited data

Results flagged for a closer look

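Within groups of 5 libraries, 14 of 146 checks found a library whose gap to its nearest neighbour exceeded 0.71 of the group's range, on log2(CPM + 1) for genes; chance alone flags about 1 in 20 groups. In trained library 4 these were Gie at 22 CPM, Ark at 67.8 CPM and Hsromega at 820.7 CPM. In trained library 3 tim at 0.2001 CPM and Atg4 at 0 CPM lay below the others, and in trained library 2 Nmdar1 at 14.8 CPM lay below and the number of genes with at least 10 counts, 7381, above the others.

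In control library 5 Rcd7 at 0.0578 CPM, CG5807 at 11.8 CPM and CaMKII at 3216 CPM were apart from the other controls, as was its total of 17.312 M reads (M, 1e6). Srp9 at 50.5 CPM in control library 4, Hr38 at 0 CPM in control library 1 and rut at 8.08 CPM in control library 2 lay below the other controls. No library was left out of the values in the text for these gaps.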

How the results depend on the processing

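edgeR called 0 genes in both directions with DESeq2 size factors, other filters, title code or grouping letter as a term, title codes 9 and 12 alone, the first run only, each library left out and 3 pairs of libraries left out, as did limma voom. The exceptions were DESeq2 (34 higher and 23 lower) and the fit of all 14 neuron groups (0 higher and 2 lower, CG32262 and CG9975, each with no reads in trained libraries). Both title code fits take their contrast from codes 9 and 12, where control libraries 1 and 2 are the only controls, so they are not separate checks. For the difference from the other classes DESeq2 called 284 higher and 139 lower and every edgeR alternative 0. Genes with all trained libraries above all controls numbered 66 to 97 with 1 library left out, and those below 31 to 50. The grouping letter as a term and the fits that leave out 2 libraries were added after the data were seen. Leaving out 2 gave 137 above and 110 below without control libraries 3 and 4, 105 and 73 without trained library 2 and control library 4, and 165 and 76 without trained libraries 3 and 4. Fewer libraries make separation easier by construction. The difference in genes detected, -203.0, was 296.2 at a minimum of 10 counts and -392.4 to 0.1 with 1 library left out, the highest without control library 5.

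Of 24 memory genes 7 kept the sign of their fold change in all 23 alternatives, as did 7 of 34 list medians; for genes named by p or separation the sign is largely set by that choice. The antimicrobial peptide median ran from -1.82 to 0.10 the muscle median from -1.75 to 0.68 and the hemocyte median from -2.22 to 1.83, while fat body stayed below 0 (-1.40 to -0.46) and ion channels above 0 (0.10 to 0.81). Title code as a term moved the median of all genes from 0.03 to 0.18. No paired analysis was possible because no label pairs single trained with single control libraries throughout, although the series speaks of paired animals. Grouping letter A holds only trained library 4 and control library 2, which also share title code 12. Letter D holds only trained library 1 and control library 1. Letter C joins trained libraries 2, 3 and 5 to control library 5, and B holds control libraries 3 and 4. A fit of A and D alone was not run. The authors' grouping letter as a block, where A, C and D hold both groups and B only controls, called 0 genes in either direction.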
